A study of Caenorhabditis elegans with 4 samples.

Results

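LIN-11 peaks that were less than 1 kb wide and lay close to another peak are described here. They were chosen by 2 values of the authors' peak list, the width of a peak, below 1000 bp, and the distance from its midpoint to the nearest other peak midpoint on the same chromosome, at most 2000 bp. Of the 2381 peaks in the list, 2139 were under 1 kb and are called narrow below. Of these, 317 met the distance limit and are called clustered, which is 14.8% of narrow peaks (exact binomial 95% interval 13.3 to 16.4%) and 13.3% of the whole list. The other 1822 narrow peaks are called isolated. A nearest peak could have any width. Of the 242 peaks of 1 kb or more, 51 (21.1%, 16.1 to 26.8%) also lay within the limit of another peak. They are not counted as members.

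LIN-11 is a transcription factor of the LIM homeodomain family, whose proteins bind DNA through the homeodomain and other proteins through the LIM domains. In Caenorhabditis elegans it is known for its part in the fates of vulval cells and of several kinds of neurons. Worm genes are compact and densely spaced, and the regulatory DNA of a gene often lies close upstream of it or within its introns, so that separate elements of 1 gene or of neighbouring genes can sit within a short stretch.

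The worms were OP62 hermaphrodites at the second larval stage (L2), grown at 20 degrees Celsius. Their genotype, unc-119(ed3) III; wgIs62, combines an unc-119 mutation with a transgene that carries unc-119(+) and lin-11 fused to the tags TY1, EGFP and 3xFLAG. Both groups of libraries came from this strain: 2 ChIP libraries, recovered with a goat antibody against EGFP after crosslinking with 2% formaldehyde, and 2 input libraries, with replicate numbers 1 and 2. The transgene was introduced by bombardment, whole animals were used (the protocol text names embryos at lysis, the stage label L2), and the fusion protein is the product of the transgene, while no untagged strain was analysed here. The deposited list combines these libraries on genome build WormBase WS180 and gives each peak a start, an end and 1 q-value from the caller PeakSeq, which weighs ChIP tags against input tags. Library depths are unknown, no peak has a value per replicate, and peaks are not replicates, so groups of peaks are compared as descriptions with no p-value. Intervals cover counting error over peaks and treat peaks as independent, which members of 1 cluster are not.

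Clustered narrow peaks came mostly in pairs. A cluster here is a run of peaks of any width in which each midpoint is at most 2000 bp from the next. The 317 members fell into 159 clusters. Of these, 131 were pairs (82.4%, exact binomial 95% interval 75.6 to 88.0%), 25 held 3 peaks and 3 held 4 peaks, the most seen. Pairs contained 237 members, clusters of 3 contained 68 and clusters of 4 contained 12. In 129 clusters every peak was narrow, made up of 106 pairs, 20 clusters of 3 and 3 of 4. The other 30 clusters mixed widths and contained 33 members, 25 of them as the narrow peak of a pair with 1 wide peak. Of the mixed clusters of 3, 3 had 2 narrow peaks and 2, both on chromosome II, had 1.

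The distances, which chose the members, are given as a description. The median distance to the nearest midpoint was 1188.5 bp, with quartiles of 909 and 1478.5 bp. Only 4 members had their nearest midpoint within 500 bp, 113 lay over 500 and up to 1000 bp away, 124 over 1000 and up to 1500 bp, and 76 over 1500 and up to 2000 bp. Measured from edge to edge, the gap to the nearest peak had a median of 675 bp and a range of 202 to 1712 bp. The shortest gap between any neighbours in the whole list was also 202 bp, so the list holds no peaks that touch. Isolated peaks had a median distance of 14010 bp to the nearest midpoint, and 392 of the 1822 had one at 5000 bp or less. No range of distances around the limit was empty, but counts were uneven there: 34 narrow peaks lay at 1715 to 2000 bp and 68 at 2000 to 2332 bp, ranges of equal width on a log scale. The 4 members within 500 bp had a median width of 114.5 bp, and each was the nearest peak of another of the 4. With no gap below 202 bp in the list, midpoints this close leave room for small peaks only. Their widths are therefore bounded by the distance, though not set by it. Their minus log10 q-values lay between 2.01 and 2.54. The nearest peak had median widths of 367 bp (328 to 420 bp), 453 bp (372 to 526 bp) and 492 bp (340 to 605 bp) in the 3 further classes, with overlapping intervals. Neighbour width is bound to midpoint distance in these classes as well.

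**Figure D1:**
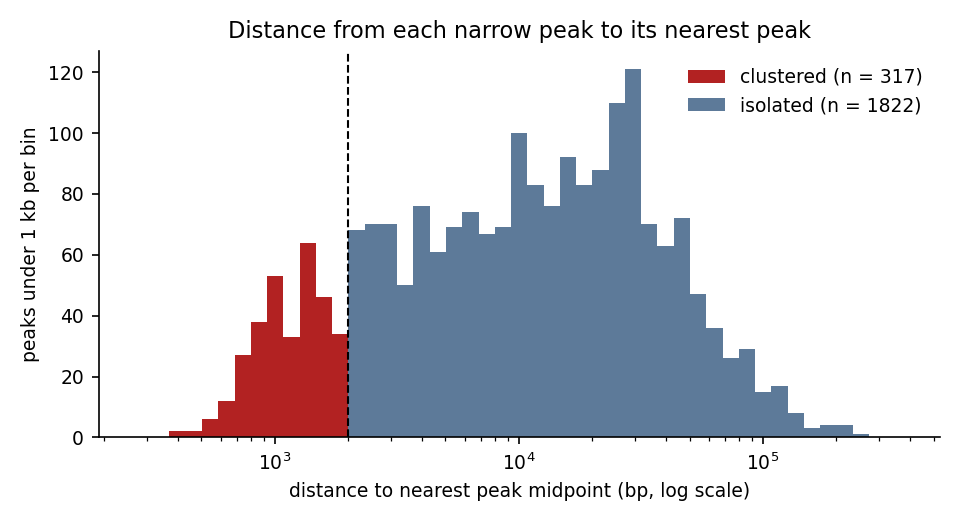
Distance from each narrow peak to its nearest peak midpoint, in bp on a log scale, as a stacked histogram of 317 clustered (red) and 1822 isolated (blue) peaks; the dashed line marks the limit of 2000 bp. The limit falls on the left side of 1 broad distribution with no empty bin beside it, and the bin just below it holds 34 peaks, against 68 just above.

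The peaks nearest to the limit show how little separates the groups. The 5 members just inside were at 1956.5 to 1999.5 bp. The last of them was a 603 bp peak on chromosome IV at 10932817 to 10933419, whose nearest peak was 2632 bp wide. The 5 isolated peaks just outside were at 2002 to 2012.5 bp. Of these, a pair on chromosome II, at 3052775 to 3053129 and 3054698 to 3055210, were 2002 bp apart. At the width limit, the 3 widest members had 995, 994 and 988 bp, and the 3 narrowest clustered peaks above it had 1004, 1008 and 1008 bp.

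A cluster spanned a median of 1854 bp from the first start to the last end, with a range of 554 to 4392 bp. Peaks covered a median of 55.6% of that span (quartiles 41.3 and 72.7%), and the rest lay between peaks. Pairs spanned a median of 1734 bp and clusters of 3 a median of 2883 bp. The 3 tightest narrow pairs had midpoints 439.5, 518 and 535.5 bp apart. The tightest was on chromosome IV, where peaks of 89 bp at 1805333 to 1805421 and of 140 bp at 1805747 to 1805886 had q-values of 0.00942 and 0.00978, near the highest in the list. The third, on X, paired a 420 bp peak at 13597959 to 13598378, whose q-value was 4.34e-13, and a 211 bp peak at 13598599 to 13598809, where it was 0.00169. Close spacing was thus seen both between peaks with high q-values and between a low and a high one. The 3 loosest narrow pairs, on V, IV and I, had midpoints 1937.5, 1942 and 1956.5 bp apart.

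The 3 clusters of 4 were all on chromosome I, and each held 1 peak with a far lower q-value than the others. In the first, which spanned 4263 bp at 378721 to 382983, the q-values from left to right were 0.00292, 4.76e-05, 0.00500 and 5.96e-20. The lowest belonged to the rightmost peak, which was also the widest of the 4 at 656 bp, and the leftmost lay 1957 bp from its neighbour, just within the limit. In the second, which spanned 3666 bp at 3822348 to 3826013, they were 6.15e-14, 0.00649, 1.22e-05 and 0.00970. Here the lowest q-value was at the left end, and the 4 peaks were 668, 291, 757 and 213 bp wide. In the third, which spanned 3819 bp at 4701033 to 4704851, they were 2.49e-19, 0.00278, 1.80e-07 and 0.00252. Its leftmost peak was 994 bp wide, and a further narrow peak at 4699231 to 4699809 lay 2009.5 bp to the left, just outside the limit. In all 3 clusters an outer peak had the lowest q-value, and 2 of the 4 peaks had a q-value above 0.001.

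**Figure D2:**
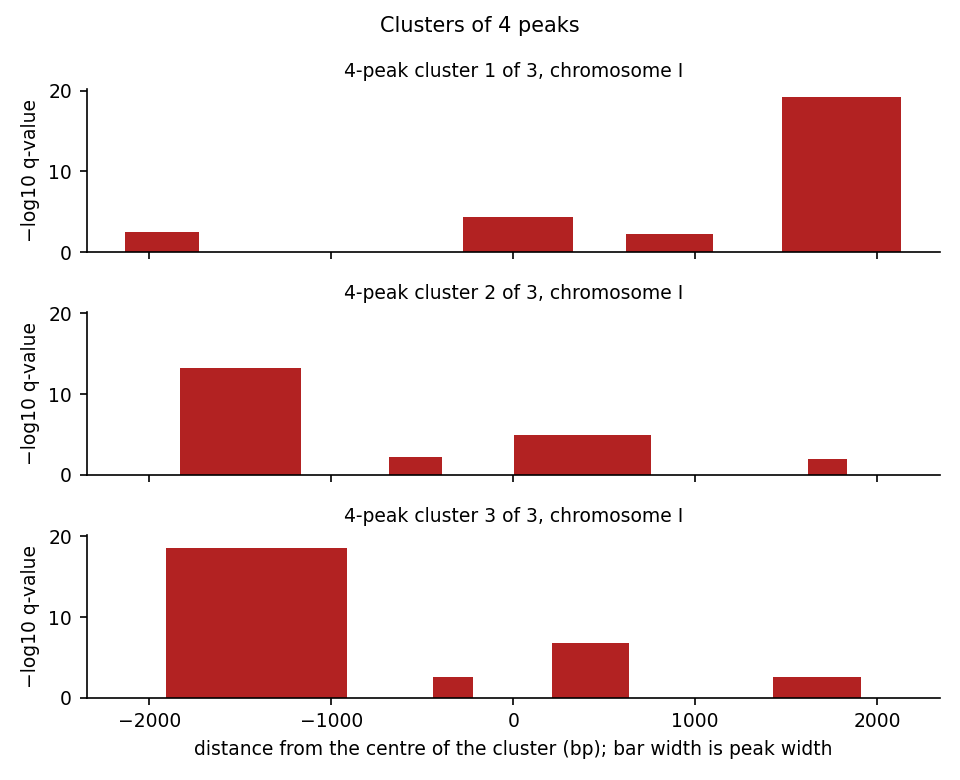
The 3 clusters of 4 peaks on chromosome I; the x axis is the distance in bp from the centre of the cluster, each bar is as wide as its peak, and bar height is minus log10 of the q-value. An outer peak stands highest in each cluster, at 13.2 to 19.2, and the lowest bars are between 2.01 and 2.56.

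Among the 25 clusters of 3 peaks, the middle peak had the lowest q-value in 9 (36.0%, exact binomial 95% interval 18.0 to 57.5%). Their best q-values ran from 2.76e-11 to 0.00285, above the best of each cluster of 4. The lowest was on chromosome IV, where 3 narrow peaks between 2602010 and 2605166 had q-values of 2.76e-11, 0.00739 and 0.00128 from left to right. On chromosome I, between 12038961 and 12041460, the middle peak had 1.23e-10, against 0.00697 on its left and 0.00588 on its right. Both clusters were picked with their values known, as was a mixed cluster on I, between 12547794 and 12552185, whose best value of 8.43e-11 belonged to a wide peak. A q-value below 1e-05 occurred in 19 of the 28 clusters of 3 or 4 peaks (67.9%, exact interval 47.6 to 84.1%) and in 66 of the 131 pairs (50.4%, 41.5 to 59.2%). These intervals overlapped, and larger clusters hold more peaks.

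The q-values of clustered and isolated narrow peaks had medians with overlapping intervals. The median minus log10 of the q-value was 3.13 in clustered peaks (95% order-statistic interval 2.89 to 3.40) and 3.27 in isolated ones (3.17 to 3.45), a difference of -0.15. A q-value below 1e-05 was found in 80 clustered peaks (25.2%) and 505 isolated ones (27.7%), beside 31.0% of all 2381 peaks. One below 1e-10 was found in 23 clustered peaks (7.26%, exact interval 4.65 to 10.7%) and 161 isolated ones (8.84%, 7.57 to 10.2%), beside 11.2% of all peaks. The whole list includes the wide peaks, and its shares are therefore not those of narrow peaks. At the other end, 148 clustered peaks (46.7%) and 803 isolated ones (44.1%) had a q-value above 0.001. Intervals of both groups overlapped at each of these limits.

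Within clusters, 134 members had the lowest q-value of their cluster and 183 did not. By that choice the first have lower q-values, with a median of 1.73e-05 against 0.00292. Widths had medians of 452.5 bp (395 to 517 bp) in the best members and 320 bp (287 to 374 bp) in the others. Width is not independent of the q-value that split them. In pairs of isolated neighbours too, the wider peak had the lower q-value in 64.8%. Of the 183 others, 15 had a q-value below 1e-05 (8.20%, exact interval 4.66 to 13.2%) and 127 one above 0.001 (69.4%, 62.2 to 75.98%). Among the 134 best members these shares were 48.5 and 15.7%, and among all 2381 peaks 31.0 and 41.3%. The choice by q-value sets the order of these shares.

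The lowest q-values among clustered narrow peaks did not reach those of isolated ones. The lowest was 6.49e-23, in a 738 bp peak on chromosome I at 9625546 to 9626283, against 8.27e-36 in the larger group of isolated peaks. Next came a 568 bp peak on X at 11093805 to 11094372 with 3.83e-22, and a 427 bp peak on IV at 6323625 to 6324051 with 2.85e-21. The next 7 had q-values up to 1.14e-14, with 6 of them on I and 1 on V, and 2 of the 7 belonged to clusters of 4 described above. Of these 10 members, 7 had a nearest peak with a q-value above 0.001. By their own q-values, 41.3% of all peaks and 46.7% of members were above 0.001. Among members without the lowest q-value of their cluster the share was 69.4%. Each of the 10 had the lowest q-value of its cluster, so its nearest peak had a higher one. The share of nearest peaks above 0.001 was not computed for other groups. The X peak had a neighbour at 1.18e-05. The peak on chromosome I at 10249585 to 10250364 had one at 3.33e-07. The peak at 535304 to 535622 on the same chromosome had one at 1.36e-13, 1696 bp wide.

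**Figure D3:**
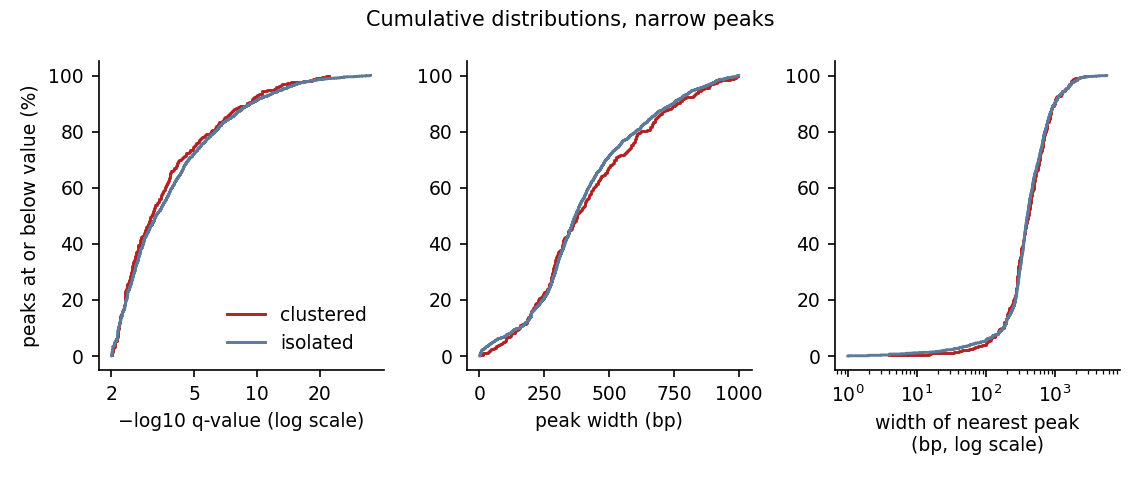
Cumulative share of clustered (red, n = 317) and isolated (blue, n = 1822) narrow peaks by minus log10 q-value (log scale), by width in bp and by width of the nearest peak in bp (log scale). The curves of both groups run close together in each panel, with medians of 3.13 and 3.27, of 377 and 370 bp, and of 412 and 400 bp.

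Median widths had overlapping intervals as well. Clustered narrow peaks had a median width of 377 bp (95% order-statistic interval 343 to 415 bp) and isolated ones 370 bp (360 to 381 bp). Both are cut at 1000 bp by the choice of members. Peaks of 200 to 399 bp were the most frequent class in both groups, with 120 clustered (37.9%) and 763 isolated (41.9%). Very narrow peaks, under 50 bp, made up 8 of the clustered peaks (2.52%, exact interval 1.10 to 4.91%) and 87 of the isolated ones (4.77%, 3.84 to 5.86%). The narrowest members, of 4, 14, 15 and 16 bp, had q-values of 0.00250, 0.00250, 0.00402 and 0.00724, all above 0.001. These 4 were named after their values were seen.

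At the limit of 2000 bp between midpoints, the peaks next to clustered peaks and those next to isolated ones had similar median widths. The nearest peak had a median width of 412 bp (367 to 451 bp) for clustered peaks and 400 bp (385 to 413 bp) for isolated ones. It was 1 kb or wider for 30 clustered peaks (9.46%, exact interval 6.48 to 13.2%) and for 179 isolated ones (9.82%, 8.50 to 11.3%). The widest neighbour of a member was 2771 bp and that of an isolated peak 5646 bp. Distance between midpoints and neighbour width are not independent measures. With a limit of 1000 bp only 1 of 117 members had a neighbour of 1 kb or more (0.855%). The median difference of neighbour width turned to -46 bp, while that of the members' own width turned to -26 bp. With narrow neighbours alone the difference of neighbour width was -1 bp. With edge gaps, median neighbour widths were 436 bp for clustered and 394 bp for isolated peaks, and 12.6% of members lay beside a wide peak. Without chromosome I they were 444 and 403 bp, with 13.1% beside a wide peak.

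Members beside a wide peak were the minor partner in most cases. These 30 members had a median minus log10 q-value of 3.23, while the wide peaks beside them had a median of 6.69 and a median width of 1432 bp. The member had the lower q-value of both in 4 of 30 cases (13.3%, exact interval 3.76 to 30.7%). Among isolated narrow peaks whose nearest peak was wide, this was so for 42 of 179 (23.5%, 17.5 to 30.4%). Members beside a narrow peak had the lower q-value in 145 of 287 cases (50.5%), and isolated peaks beside a narrow one in 824 of 1643 (50.2%). The median edge gap of members was 495.5 bp beside wide peaks and 700 bp beside narrow ones, an order that a limit on midpoints favours, since a wide peak takes up more of the distance.

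Beside a wide peak, the median minus log10 q-value was 3.23 in members (2.86 to 4.07) and 2.87 in isolated peaks (2.76 to 3.28). Beside a narrow peak it was 3.11 in members (2.80 to 3.41) and 3.34 in isolated peaks (3.21 to 3.51), and the intervals overlapped in both cases.

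The pairs show how q-values were shared between close peaks. In the 106 pairs of narrow peaks, both had a q-value below 1e-05 in 7 (6.60%, exact interval 2.70 to 13.1%), 1 did in 41 (38.7%, 29.4 to 48.6%) and neither did in 58 (54.7%, 44.7 to 64.4%). For comparison, 495 pairs of isolated narrow peaks that were each other's nearest peak had a median distance of 10007.5 bp. Of these, both were below 1e-05 in 51 (10.3%, 7.77 to 13.3%), 1 in 190 (38.4%, 34.1 to 42.8%) and neither in 254 (51.3%, 46.8 to 55.8%). The median difference of minus log10 q-value between the peaks of a pair was 1.60 (1.04 to 2.50) in clustered pairs and 1.87 (1.55 to 2.14) in isolated ones. The wider peak had the lower q-value in 70 of 106 clustered pairs (66.0%, exact interval 56.2 to 74.96%) and in 321 of 495 isolated pairs (64.8%, 60.5 to 69.1%). On each of these measures the intervals of clustered and isolated pairs overlapped.

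**Figure D4:**
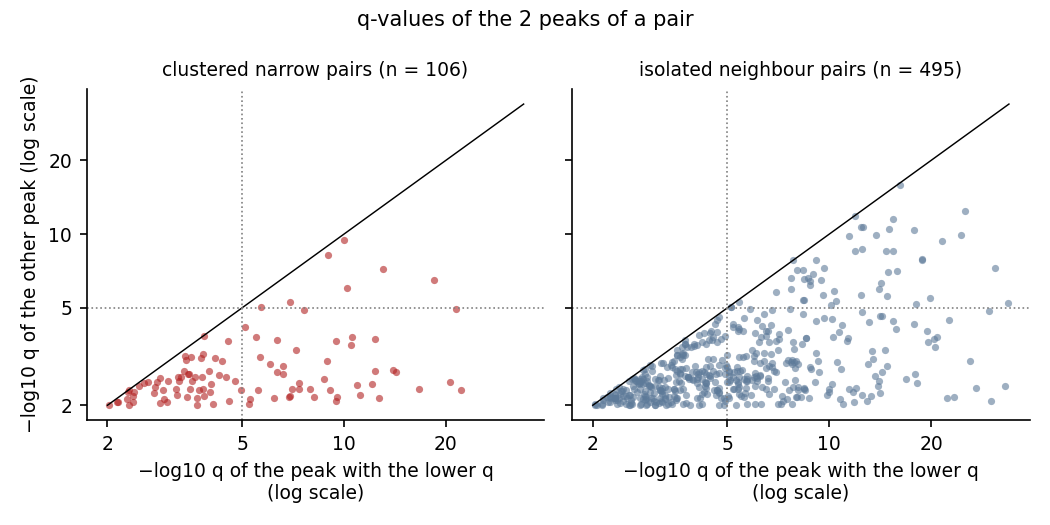
Minus log10 q-value of the peak with the higher q-value against that of its partner, both on log scales, for 106 clustered narrow pairs (left) and 495 pairs of isolated narrow peaks that are each other's nearest (right). The line marks equal values and dotted lines a q-value of 1e-05; most points of both panels lie below the horizontal dotted line, with 7 clustered and 51 isolated pairs above both dotted lines.

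Chromosome I held the most clustered narrow peaks. It had 126 of the 317 (39.7%, exact interval 34.3 to 45.4%), against 404 of the 1822 isolated ones (22.2%, 20.3 to 24.2%). Of its narrow peaks, 23.8% were clustered (20.2 to 27.6%), against 11.9% on the other chromosomes together (10.3 to 13.6%). The lowest share was on X, with 29 of 332 (8.73%, 5.93 to 12.3%). Chromosomes V, II, IV and III lay between, with 13.4, 12.9, 12.8 and 11.7%, and their intervals overlapped one another and that of X. Clusters of 3 or 4 peaks with a member numbered 13 on I, 6 on II, 4 each on III and V, 1 on IV and 0 on X, where all 15 clusters were pairs (exact interval of the share of pairs 78.2 to 100%).

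Chromosome I also had the highest peak density. Chromosome I had 38.5 peaks of any width per Mb, measured up to the end of its last peak, and the others 16.6 (V) to 26.9 (III). A fixed limit in bp can take in more neighbours where peaks are denser, and the cause of the higher share on I was not tested. When the limit was scaled to the mean spacing of each chromosome, an alternative chosen after seeing the data, it was 1241 bp on I and 2875.9 bp on V. The clustered share was then 13.6% on I (10.8 to 16.8%), against 13.9% on the others together, and V had the highest share, 19.7% (15.4 to 24.7%). IV had 16.6%, and II, X and III had 12.9, 10.8 and 10.5%, below I but with overlapping intervals. Peak widths and the shortest gap of 202 bp do not scale with the limit. They take up more of the short limit on I than of the long one on V, and how far this alters either share was not tested. With 1 limit on all chromosomes, the share on I against that on the others was 10.2 against 3.92% at 1000 bp, 46.0 against 28.9% at 5000 bp and 29.4 against 16.0% with edge gaps. Among peaks with a q-value below 0.001 it was 10.03 (6.96 to 13.9%) against 6.67%. With those q-values V had the highest share, 16 of 154 (10.4%, 6.06 to 16.3%), and its interval overlapped that of I. Between I and the others together, the difference was 11.9 percentage points at 2000 bp. It was 6.27 points at 1000 bp, 17.1 at 5000 bp, 13.4 with edge gaps and 3.36 with q-values below 0.001. Without chromosome I, 191 of 1609 narrow peaks were clustered (11.9%).

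**Figure D5:**
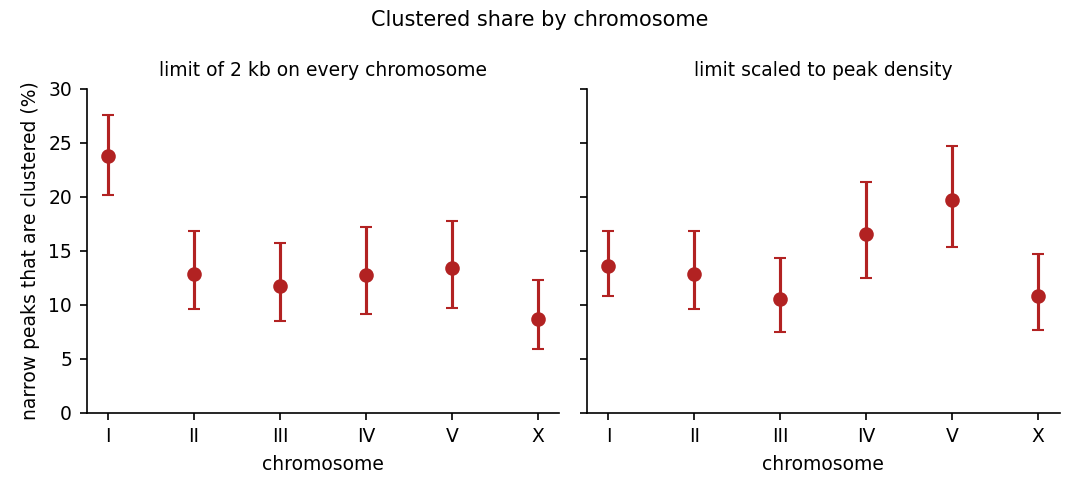
Share of narrow peaks that were clustered, in percent, on each chromosome, with exact binomial 95% intervals as bars; left, the limit of 2 kb on every chromosome, right, a limit scaled to the mean spacing of peaks on the chromosome. Chromosome I stands above the others on the left, at 23.8%, and lies at 13.6% on the right, where V is highest at 19.7%.

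Clusters were found along the whole of chromosome I. Each of its 14 full bins of 1 Mb held at least 1 member, and the fullest, from 6 to 7 Mb, held 13. On the other chromosomes 2 to 7 full bins had none, with 2 of 13 on III, 4 of 15 on II, 5 of 17 on X, 7 of 17 on IV and 7 of 20 on V. The fullest bin outside I was at 14 to 15 Mb on II, with 10 members. The median distance between the centres of successive clusters was 175 kb on I, and 476 kb (IV) to 948 kb (X) on the others. The longest stretch between successive clusters with a member, from the end of one to the start of the next, was on V, from 13763991 to 18637606, followed by IV from 10936433 to 15470873. On I it ran from 8224661 to 9428220.

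Members lay in all parts of the autosomes. With each autosome cut in 3 equal segments, the left, central and right segments held 107, 88 and 93 of the 288 autosomal members (37.2, 30.6 and 32.3%). Isolated narrow peaks had 507, 486 and 526 of 1519 (33.4, 32.0 and 34.6%). The central share was 30.6% in clustered peaks (exact interval 25.3 to 36.2%) and 32.0% in isolated ones (29.7 to 34.4%). On chromosome II, picked after the values by chromosome were seen, the left segment held 3 of 46 members (6.52%, 1.37 to 17.9%), in 2 clusters, against 86 of 311 isolated peaks (27.7%, 22.8 to 33.0%). Its right segment held 29 members (63.0%, 47.5 to 76.8%), in 15 clusters, against 136 isolated peaks (43.7%, 38.1 to 49.4%), with overlapping intervals. With gaps measured from edge to edge the left segment share was 17.9% in clustered and 26.6% in isolated peaks, and with a limit of 5000 bp it was 18.7 and 28.9%. On IV the left segment held 23 of 37 members (62.2%, 44.8 to 77.5%) and 116 of 252 isolated peaks (46.0%, 39.8 to 52.4%), with overlapping intervals.

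Member widths were also compared by chromosome. On V, clustered narrow peaks had a median width of 446.5 bp (95% order-statistic interval 396 to 520 bp, n = 40) and isolated ones 343 bp (319 to 365 bp, n = 259). With q-values below 0.001 alone, the medians on V were 442.5 bp (n = 16) and 441 bp (n = 138). In the 8 other settings tried, clustered peaks on V were wider by 71.5 to 107.5 bp. On I, clustered peaks had a median of 324 bp (292 to 405 bp, n = 126) and isolated ones 365 bp (346 to 382 bp, n = 404), with overlapping intervals. The median minus log10 q-value of members ran from 2.94 on II to 3.56 on V, and on I it was 3.13 in clustered peaks (2.60 to 3.82) and 3.66 in isolated ones (3.34 to 3.87). The chromosomes V and I were picked here after their values were seen, as the highest and among the lowest of 6 chromosomes in clustered width, and II had 308.5 bp (274 to 432 bp), so that the intervals of members on V, I and II overlapped.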

How the data were processed

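ChIP-seq of OP62 L2 hermaphrodites gave 4 libraries, 2 of ChIP and 2 of input DNA. The authors deposited 1 combined peak list, called with PeakSeq on WormBase WS180 per the file headers, with 1 q-value per peak and all q-values below 0.01. The aligner, versions and filters are not given in the sources used here, and depth is unknown. Each library's own peaks were not analysed here.

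Distances, clusters, widths and neighbours were computed from the deposited starts and ends with Python 3.11.15, pandas 2.3.3, NumPy 2.4.6 and SciPy 1.17.1. Shares have exact (Clopper-Pearson) 95% intervals and medians have order-statistic intervals from the binomial distribution, both for counting error alone. No p-value was computed. Code was tested on simulated data. Autosome segments run to the end of the last peak.

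The members and all lists were chosen with earlier results of these data known. Named peaks are the clusters of 4, the 10 members with the lowest q-values, the tightest and loosest 3 narrow pairs and those nearest to the limits; others are marked where they appear. Of the other settings tried, 7 were set at the outset and 2, the chromosome I omission and the limit scaled to density, were chosen after seeing the data. Genes and sequences on WS180 were not used here, and the planned distance to genes was not run.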

Additional observations from a re-analysis of the deposited data

How the results depend on the processing

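The median absolute difference in minus log10 q-value between a narrow peak and its nearest peak was 1.78 in clustered peaks (1.54 to 2.24). In isolated ones it was 1.99 (1.82 to 2.13). Clustered minus isolated, this is -0.21, called the neighbour difference here. A limit of 1000 bp gave a clustered share of 5.47%, a chromosome I share of members of 46.2% and 0.855% of members beside a wide peak. The neighbour width difference (clustered minus isolated) was then -46 bp and the minus log10 q-value difference -0.53, while the neighbour difference turned to 0.73. A limit of 5000 bp gave 33.1% clustered and 70.5% pairs, and turned the q-value difference to 0.0841 and the neighbour difference to 0.0885. Edge to edge gaps gave 19.4% clustered and turned the neighbour difference to 0.0532. With q-values below 0.001 alone, 7.58% were clustered, 98.1% of clusters were pairs, 38.0% of autosomal members were central, 17.8% lay beside a wide peak, the neighbour width difference was 72 bp and the neighbour difference -0.82. With narrow neighbours alone the neighbour width difference was -1 bp. Without chromosome I, 11.9% were clustered. With the limit scaled to density, chromosome I held 24.3% of members, and its share minus that of the others turned to -0.34 percentage points, against 11.9 at 2000 bp throughout. The width difference of 7 bp turned to -26 bp at 1000 bp and to -18.5 bp for widths below 500 bp, and was 18 bp at 5000 bp, 27 bp with edge gaps, 18.5 bp with q-values below 0.001, 0 bp without peaks under 50 bp, 2 bp with narrow neighbours alone and 29.5 bp without chromosome I. The cause was not tested. Of 105 alternative values of 12 results, 9 changed sign, all given here. No paired analysis was possible because both replicates share a single list of peaks, and leaving out a replicate was not possible for that reason. Unknown depth limits what a missing neighbour means: a peak is isolated only among peaks detected here.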

Other observations

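The q-values matched whole tag numbers. Each q-value times its line number, divided by 20869, equalled a binomial upper tail for 2 whole numbers, both sides having the same probability, within a relative tolerance of 1e-11, for all 2381 peaks. With that divisor 1 lower or 1 higher, 0 peaks matched. Read as ChIP tags and input tags, which is an inference and not a value of the list, 316 of the 317 clustered narrow peaks and 1820 of the 1822 isolated ones had a single solution.

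On that reading, clustered narrow peaks had a median of 83.5 ChIP tags (95% order-statistic interval 76 to 93) and isolated ones 94 (91 to 98). Input tags had medians of 36 (33 to 40) in clustered peaks and 41 (40 to 43) in isolated ones. The ratio of ChIP to input was 2.40 in clustered peaks (2.30 to 2.50) and 2.38 in isolated ones (2.33 to 2.44). Among peaks of at least 50 bp, clustered ones had a median of 20.9 ChIP tags per 100 bp (20.1 to 22.0) and isolated ones 23.1 (22.6 to 23.7), with intervals that did not overlap. Input tags per 100 bp were 8.80 in clustered peaks (7.92 to 9.56) and 10.04 in isolated ones (9.74 to 10.4), again without overlap. Median ChIP and input densities were thus both lower in clustered peaks, while the intervals of their ratio overlapped. In clustered peaks, input tags per 100 bp were 7.84 on chromosome I (7.04 to 9.32) and 9.39 on the others (8.29 to 10.5). ChIP tags per 100 bp were 20.8 and 21.0. Isolated peaks were not split by chromosome here, so the larger part that I has in clustered peaks was not taken into account. A ratio of 5 or more was found in 18 clustered peaks (5.70%, exact interval 3.41 to 8.85%) and 144 isolated ones (7.91%, 6.71 to 9.25%). Peaks are not replicates, and no test was made.

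In the clusters of 4 peaks the same reading gave ratios of 1.70 to 3.49. In the first, from left to right, ChIP tags were 66, 89, 99 and 227 and input tags 31, 37, 57 and 65. The second had 217, 60, 228 and 38 ChIP tags and 80, 29, 134 and 15 input tags. In the first and second, the peak with the lowest q-value had the highest ratio, 3.49 and 2.71. In the third, the 994 bp peak with the lowest q-value had 370 ChIP and 154 input tags, a ratio of 2.40, while the middle peaks had higher ratios, 2.80 and 2.91, from 42 and 102 ChIP tags.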
